A study of Mus musculus with 2 samples.

Results

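Cytosolic ribosomal protein genes encode the proteins of the 80S ribosome, the machine that makes nearly all cellular protein. The 83 genes described here, of 17592 gene columns in all, were taken by their symbols alone: every column named Rpl or Rps with a number, with or without a short ending, together with Rpsa and the P stalk genes Rplp0, Rplp1 and Rplp2, and no pseudogene column. No measured value entered that choice. Of the 83, 51 encode large-subunit proteins, the P stalk included, and 32 encode small-subunit proteins. The cells came from the dentate gyrus of C57BL/6 mice, the hippocampal region that goes on making granule neurons in adult rodents. There was 1 library from mice 3 months old, called the young table here, and 1 from mice 16 months old, called the old table; both carried no other labelled genotype or treatment. Tissue was dissociated with papain and cells that excluded propidium iodide were sorted, so every value is from cells that survived both steps. How many animals gave each library is not given in the sources used here.

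The small subunit reads the mRNA, and the large subunit joins the amino acids. The P stalk (Rplp0, Rplp1 and Rplp2) is the arm of the large subunit that calls elongation factors to the ribosome. Most mRNAs for these proteins start with a C followed by a run of pyrimidines, the terminal oligopyrimidine (TOP) motif, through which the mTORC1 pathway controls their translation. Several members have a paralog, a second gene for nearly the same protein, among them Rpl22l1, Rps27l, Rpl7l1, Rpl39l and Rpl10l; Rpl39l and Rpl10l are best known from the testis. UMIs count mRNA 3' ends, so the levels below say nothing of translation or of the number of ribosomes.

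Windows around annotated starts are shown for some of the members named later, picked to show starts with and without the pyrimidine run. Each has 20 bases before the start and 10 from it, from RefSeq on GRCm38.p6, written 5′ to 3′ on the gene's strand. Capitals mark the unbroken run of C and T that covers the start base. The first 4 have a C at the start and a run of at least 4 pyrimidines after it:

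Rps27, chr3:90213639-90213668, minus strand: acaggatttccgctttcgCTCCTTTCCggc

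Rps6, chr4:86857358-86857387, minus strand: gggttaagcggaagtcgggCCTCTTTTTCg

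Rplp2, chr7:141447631-141447660, plus strand: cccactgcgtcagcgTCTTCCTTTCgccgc

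Rpl38, chr11:114668560-114668589, plus strand: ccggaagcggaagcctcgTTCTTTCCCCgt

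Rpl13 and Rpl39 have a T at the annotated start with a short run:

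Rpl13, chr8:123102330-123102359, plus strand: gtcacttccctttcgcctgaTTTTgattgg

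Rpl39, chrX:37085213-37085242, minus strand: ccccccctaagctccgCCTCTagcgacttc

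Rps26, Rplp0, Rpl41 and Rpsa, whose levels or shares are described below, have a G or an A at the annotated start and no run over it:

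Rps26, chr10:128626497-128626526, minus strand: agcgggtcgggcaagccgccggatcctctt

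Rplp0, chr5:115559447-115559476, plus strand: acgtcgtcttcgggtttcgaggaccgcctg

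Rpl41, chr10:128549159-128549188, minus strand: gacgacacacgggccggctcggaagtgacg

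Rpsa, chr9:120127746-120127775, plus strand: tggctgtgggttatttaaggacgtcatttc

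The paralogs Rpl39l, Rps27l (the more upstream of its 2 entries) and Rpl22l1 also have a G there and no run:

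Rpl39l, chr16:10170208-10170237, plus strand: cctagctcccaggcctttccggatttccgg

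Rps27l, chr9:66946066-66946095, plus strand: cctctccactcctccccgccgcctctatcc

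Rpl22l1, chr3:28805488-28805517, plus strand: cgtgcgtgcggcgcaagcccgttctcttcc

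Over the 63 members with an entry (75 entries), a C at the start followed by at least 4 C or T was found in 17.3% of entries, against 2.51% of all 32851 RefSeq promoter entries. The same pattern within 5 bases of the start was found in 41.3% of member entries and 18.3% of all. In the full entries, 250 bases before to 50 after the start and searched on both strands, CGGAAG (an ETS-type motif) was found in 60.0% of member entries against 16.9% of all, and GGGCGG (an SP-type motif, which can overlap CGGAAG by 3 bases) in 60.0% against 35.7%. GCCAT, the core of the YY1 motif, was found in 56.0% against 40.5%. TATAAA was in 9.33% against 13.6%. These are matches of letters at annotated starts; starts were not measured here.

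The young table held 2463 cells, of which 1120 drew at least 1% of their UMIs from mitochondrially encoded genes and are called brain-class cells, and 1343 fell below 1% and are described apart. The 1120 had a median of 5270.5 UMIs. Both tables hold largely the same brain-class cells: 1082 cell barcodes occurred in both tables, with the same cluster in 99.1% of cases, so the ages cannot be compared and the tables cannot serve as replicates. With 1 library per age, no p-value or standard error was computed. Brackets give 95% Poisson intervals for levels and exact intervals for ratios; both cover counting error only. Clusters were formed without the 83 genes and named from markers. All 14 neuroblast or immature granule neuron markers marked the class called neuroblast-like, including Dcx, Prox1 and Neurod1. No cluster was named from the general mature neuron markers. There was no marker list for mature granule neurons, so their presence was not tested. There were 7 classes with at least 25 young cells.

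Ribosomal protein mRNA took a 3.97 times larger share of UMIs in neuroblast-like cells than in astrocyte-like cells. In the 48 neuroblast-like cells the members summed to 1347.9 UMIs per 10,000 (1336.7 to 1359.3), or 13.5% of all UMIs. Microglia-like cells stood at 1051.8 (1048.1 to 1055.6, 368 cells) and endothelial-like cells at 999.9 (990.8 to 1008.9, 132 cells). A gap followed. Pericyte-like cells had 581.3 (571.7 to 590.9, 71 cells), oligodendrocyte precursor-like cells 567.0 (558.9 to 575.2, 42 cells) and mature oligodendrocyte-like cells 529.3 (524.1 to 534.6, 84 cells). Astrocyte-like cells were lowest at 339.9 (336.0 to 343.8, 280 cells). Of the neighbours in this order, the intervals of pericyte-like and precursor-like cells overlapped and no others did. Markers of the choroid plexus, the epithelium that makes cerebrospinal fluid, summed to 285.0 UMIs per 10,000 in the pericyte-like class, with 0 of 8 at 0, beside 374.5 for the 9 pericyte markers; nearly all came from 3 of the 71 cells. Those 3 cells had 2939 UMIs per 10,000 of choroid plexus markers and 0.426 of pericyte markers. Without them the pericyte-like level was 562.6 (552.7 to 572.7), below the precursor-like one, with overlapping intervals. The old table gave the same order, from 1345.0 in neuroblast-like to 354.9 in astrocyte-like cells.

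**Figure D1:**
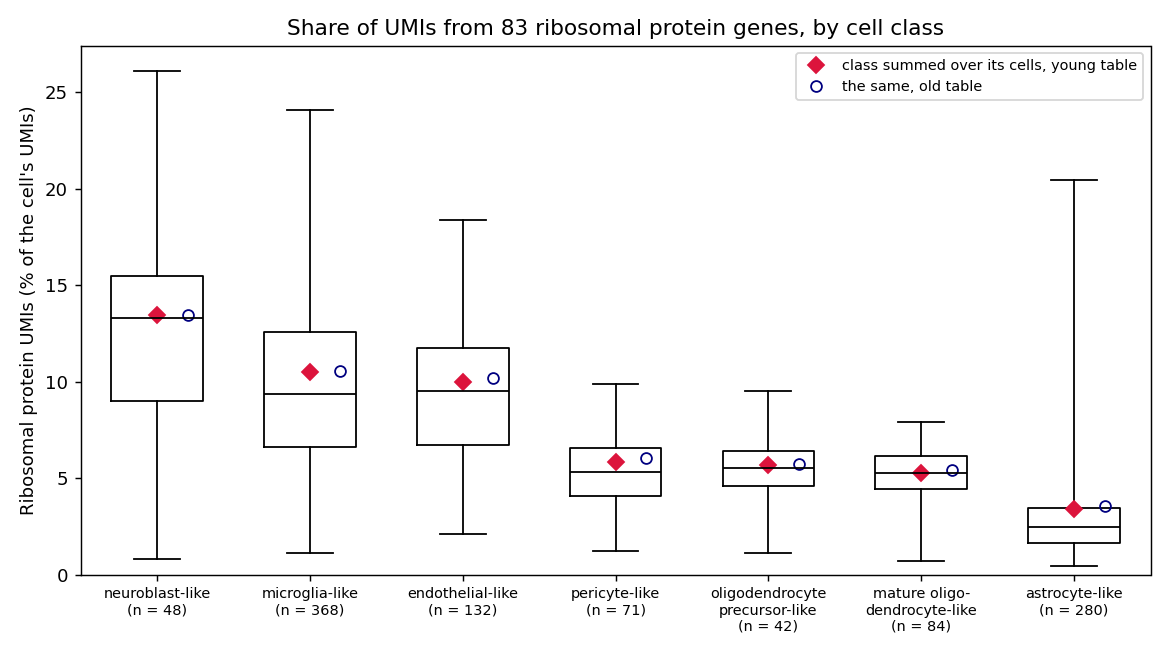
Ribosomal protein UMIs as a percent of each cell's UMIs in the 7 classes (y axis), young table. Boxes give quartiles and medians over cells and whiskers the lowest and highest cell; diamonds and circles are each class summed over its cells in the young and old tables, which hold largely the same cells. The neuroblast-like median is 13.3% and the astrocyte-like median 2.47%, and the cell ranges overlap.

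Single cells spread widely within a class. The share ran from 0.795% to 26.1% over neuroblast-like cells, with a median of 13.3%, and from 0.438% to 20.4% over astrocyte-like cells, with a median of 2.47%. Mature oligodendrocyte-like cells were tighter, with quartiles at 4.44% and 6.17% around a median of 5.27%. The share was higher in the deeper part of the cells, split at the median UMIs, in all classes but the mature oligodendrocyte-like one. Spearman's rho between a cell's share and its UMIs was 0.60 over the 48 neuroblast-like cells, 0.56 over the 368 microglia-like cells, 0.41 over the 42 precursor-like and 0.38 over the 132 endothelial-like and the 280 astrocyte-like cells each, but 0.17 over pericyte-like and -0.02 over mature oligodendrocyte-like cells. These are descriptions, since cells of a class share a library and the share has the UMI total as its denominator. Median UMIs did not follow the class order. They were 9054.5 in neuroblast-like cells, 7912.5 in microglia-like cells, 3232 in endothelial-like cells, 9303.5 in mature oligodendrocyte-like and 2051 in astrocyte-like cells. The part of depth in the differences between classes was not tested; among cells with at least 3000 UMIs the neuroblast-like to astrocyte-like ratio was 3.67.

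Clusters within a class also differed. The 3 microglia-like clusters had 9.69%, 10.6% and 11.5%. The astrocyte-like clusters had 2.56%, 5.05% and 2.32%; the 147 young cells of the last had a median of only 1235 UMIs, and without them the astrocyte-like level was 379.5 per 10,000 and the neuroblast-like to astrocyte-like ratio 3.55. Classes with under 25 cells were 15 smooth muscle-like cells at 9.20%, 8 Cajal-Retzius-like cells at 7.31% and 5 B cell-like cells at 27.6%. The unnamed cluster led by hemoglobin genes, S100a8 and S100a9, with microglial genes behind them, had 19.0% over 54 cells.

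Gene by gene, 65 of the 81 members with at least 50 UMIs in brain-class cells were highest in neuroblast-like cells, 10 in microglia-like, 3 in endothelial-like, 2 in precursor-like and 1 in pericyte-like cells. Astrocyte-like cells were lowest for 77 and mature oligodendrocyte-like cells for 4. The other 2 members, Rpl10l and Rpl3l, had 8 UMIs and 1 UMI. A member was counted as apart when its level differed at least 1.5-fold from the mean of the other 6 classes, and the same count over all 10361 genes with at least 50 UMIs is given as the background. In neuroblast-like cells 73 of 81 members were higher (24.4% of all genes) and 1 lower (38.2% of all genes), with a median ratio of 2.07 against 0.90 over all genes. In astrocyte-like cells 80 were lower (36.8% of all genes) and 1 higher (22.4% of all genes), with a median of 0.39 against 0.86.

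In microglia-like cells 28 were higher (16.9% of all genes) and 1, Rps27l, lower (52.3% of all genes), with a median ratio of 1.39 against 0.64. In endothelial-like cells 20 were higher (16.9% of all genes) and 0 lower (40.2% of all genes), with a median of 1.35 against 0.81. In precursor-like cells 48 were lower (27.7% of all genes) and 2, Rpl13 and Rpl7l1, higher (27.0% of all genes), with a median of 0.65 against 1.05. In pericyte-like cells 25 were lower (41.1% of all genes) and 1, Rps27l, higher (17.2% of all genes), with a median of 0.71 against 0.80. Without the 3 cells with choroid plexus markers, 32 were lower (40.4% of all genes) and 0 higher (18.75% of all genes). At the coarser clustering, where smooth muscle-like cells joined the class, 4 were lower (39.7% of all genes) and 1 higher (16.1% of all genes). In mature oligodendrocyte-like cells 49 were lower (50.5% of all genes) and 0 higher (12.1% of all genes), with a median of 0.63 against 0.66. As shares of the 81, the members lower were 30.9% in pericyte-like cells, below the share of all genes, 60.5% in mature oligodendrocyte-like cells, near it, and 59.3% in precursor-like cells, above it. Those higher were 24.7% in endothelial-like and 34.6% in microglia-like cells. At a fold of 2 the counts outside the highest and lowest classes were small and below the background: 6 higher in microglia-like (12.2% of all genes), 2 higher in endothelial-like (10.4%), 4 lower in precursor-like (20.4%), 9 lower in mature oligodendrocyte-like (37.8%) and 1 lower in pericyte-like cells (31.2%). In neuroblast-like cells 43 were higher (13.3%) and in astrocyte-like cells 70 lower (25.6%) at that fold. Each class's counts hold 1 call from Rpl39l, which had 9 UMIs in microglia-like, 2 in astrocyte-like, 1 in endothelial-like and 0 in the other 4 classes; it passed the minimum through 64 UMIs in an unnamed cluster of 3 young cells with a median mitochondrial share of 1.60%.

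**Figure D2:**
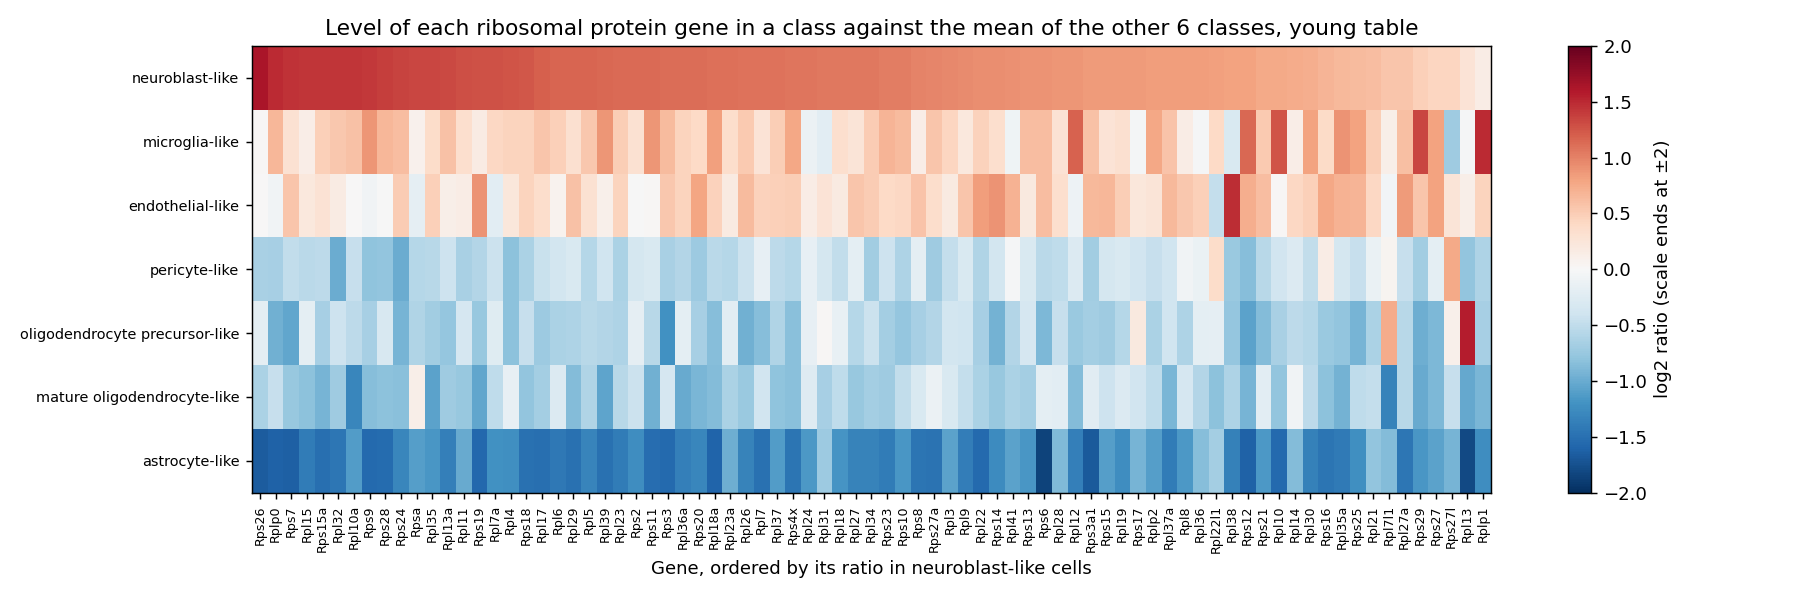
Log2 ratio of each member's level in a class to the mean of the other 6 classes (colour; the scale ends at ±2) for the members drawn (x axis) in the 7 classes (y axis), young table; Rpl39l and 1 other member are not drawn. The neuroblast-like row is positive and the astrocyte-like row negative for every member drawn, while Rpl13 is high in the mostly negative precursor-like row, and Rpl38 and Rplp1 are the highest drawn in the endothelial-like and microglia-like rows.

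The span from a member's highest to its lowest class had a median of 4.27-fold. It was narrowest for Rpl21 (2.32-fold), Rpl14 (2.62-fold) and the paralog Rpl22l1 (2.65-fold), and widest for Rpl13 (7.25-fold), Rps26 (6.82-fold) and Rplp0 (6.19-fold). Rps26, which sits at the mRNA exit of the small subunit, was at 17.7 UMIs per 10,000 in neuroblast-like cells, 7.54 in microglia-like, 7.41 in endothelial-like, 6.58 in precursor-like, 5.04 in mature oligodendrocyte-like, 4.998 in pericyte-like and 2.59 in astrocyte-like cells. The neuroblast-like level was over 2 times that of each other class. Rpl21 was flatter, at 17.8 in neuroblast-like, 16.7 in microglia-like and 16.0 in endothelial-like cells, with 7.70 in astrocyte-like cells at the low end.

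To set the overall level aside, each member was also taken as a share of all member UMIs in its class, against the mean of its shares in the other 6. Part of the mixture differed between classes: 18 of 81 members had a ratio between 0.8 and its reciprocal in every class, and of the 567 member and class pairs 39 were 1.5-fold or more apart, 6 of them from the few UMIs of Rpl39l. Microglia-like cells had the most, with 6 shares higher and 8 lower. Among the other members Rpl13 in precursor-like cells was farthest apart, 4.16-fold higher.

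Rpl13 (chr8:123102350-123105244, plus strand), a large-subunit protein, was at 50.1 UMIs per 10,000 (47.7 to 52.6) in precursor-like cells. It was at 25.5 in neuroblast-like, 23.2 in endothelial-like, 21.4 in microglia-like, 13.3 in pericyte-like, 11.5 in mature oligodendrocyte-like and 6.91 in astrocyte-like cells. The precursor-like level lay well above the neuroblast-like interval (23.9 to 27.1), although precursor-like cells were low for most other members. The old table gave 50.1 in precursor-like cells and 24.0 in neuroblast-like cells. The difference was spread over cells: the 42 precursor-like cells ran from 0 to 121 with a median of 47.9 and quartiles of 28.6 and 57.8, 39 had at least 1 UMI, and 29 lay above 35.3, the 95th percentile of the 983 cells of the other classes. The cell with the most held 5.84% of the class's Rpl13 UMIs. Read as 31-base words, 26.4% of the last 500 bases of its transcripts is also in other genes, most of it in Gm12918; the part of such shared sequence in the difference was not tested.

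Rplp1 and Rps29 had their highest levels in microglia-like cells. Rplp1, a P stalk protein, was at 40.8 in microglia-like cells, against 23.7 in endothelial-like, 19.9 in neuroblast-like, 12.5 in pericyte-like, 12.2 in precursor-like, 10.4 in mature oligodendrocyte-like and 8.43 in astrocyte-like cells. Its share of member UMIs was 1.85-fold higher in microglia-like and 0.592 of the others' mean in neuroblast-like cells. Rplp1 shares 75.1% of its 3' end with other genes, most of it with Gm10073, and its counts are uncertain to that extent. The other P stalk genes did not follow it: Rplp0 was highest in neuroblast-like cells, at 21.4 against 13.98 in microglia-like cells, and Rplp2 stood at 14.6 and 14.1. Rps29, a small zinc-binding protein of the small subunit, was at 40.4 in microglia-like, 26.8 in endothelial-like, 25.6 in neuroblast-like and 9.43 to 12.7 in the other 4 classes. Rpl10, whose product is added late in large-subunit maturation, was also highest in microglia-like cells, at 19.4 against 15.0 in neuroblast-like cells. Rpl10 shares 41.3% of its 3' end with other genes, so its counts are uncertain to that extent.

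Endothelial-like cells stood out for Rpl38, at 24.3 (22.9 to 25.8), above the 17.2 of neuroblast-like, 9.12 of microglia-like, 7.52 of mature oligodendrocyte-like and 4.70 of astrocyte-like cells. Rpl38, a large-subunit protein known for its part in translating Hox mRNAs in the embryo, was 1.98-fold higher as a share of member UMIs there. It shares 31.6% of its 3' end with other genes. Rps19, the member most often mutated in Diamond-Blackfan anemia, was second in endothelial-like cells by share (1.43-fold), at 15.3 against 18.7 in neuroblast-like and 10.2 in microglia-like cells. In mature oligodendrocyte-like cells the laminin receptor homolog Rpsa had a share 1.65-fold and Rps27a, a fusion of ubiquitin with a ribosomal protein, 1.44-fold the others' mean. Their levels there, 10.4 and 12.4, were still below those of neuroblast-like cells, 20.1 and 22.9. Rps26 led the shares in neuroblast-like cells, at 1.51-fold. In astrocyte-like cells Rps6, the S6 kinase substrate, and Rpl13 had the lowest shares, at 0.686 and 0.625 of the others' mean. Rps6 shares 51.8% of its 3' end with other genes, so its counts are uncertain to that extent.

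**Figure D3:**
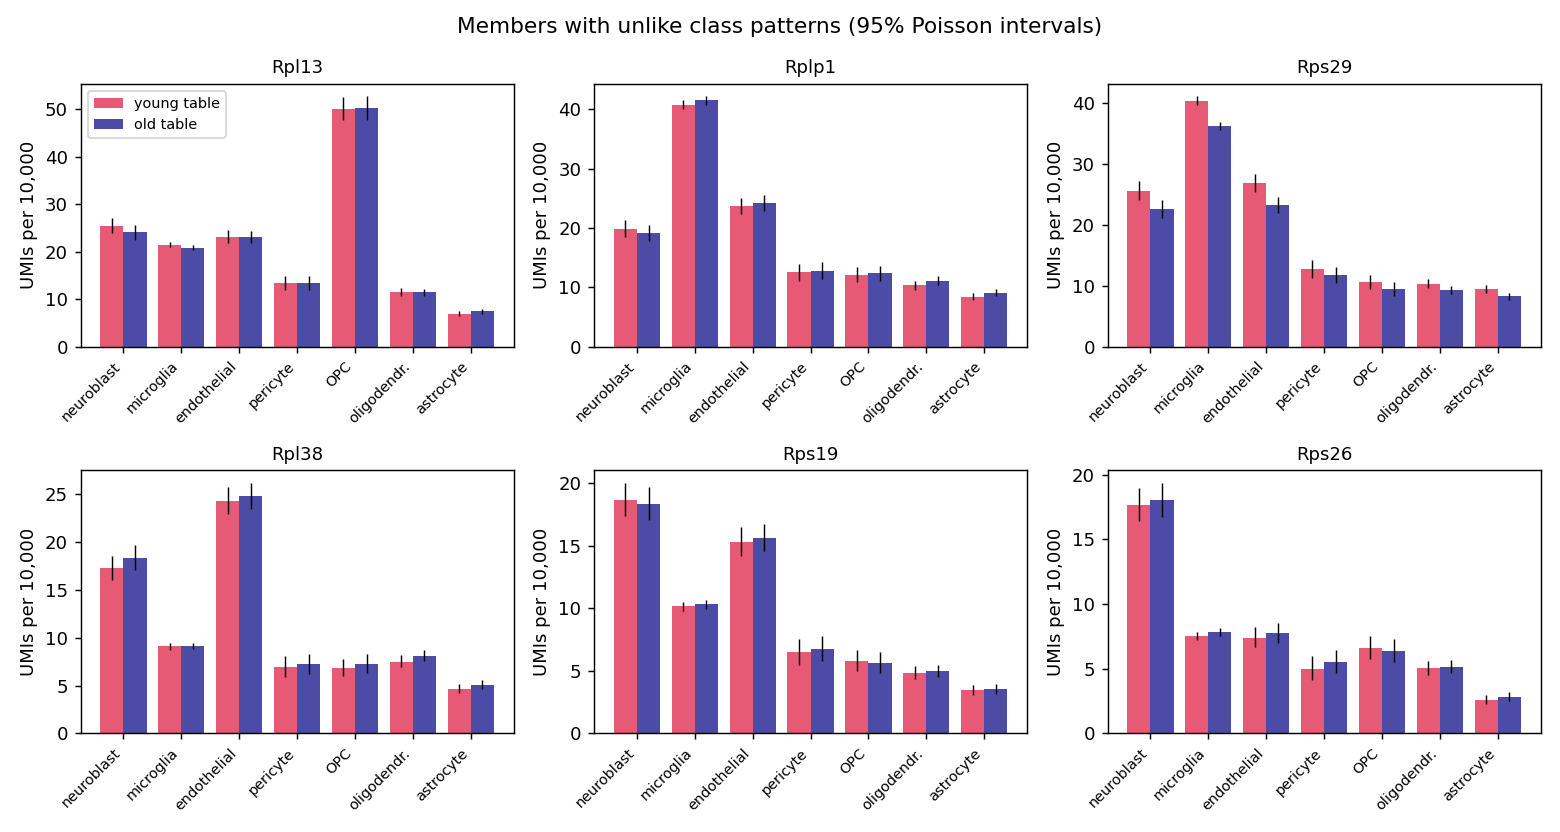
UMIs per 10,000 (y axis) of 6 members in the 7 classes, for the young table (red) and the old table (blue), with 95% Poisson intervals; OPC stands for oligodendrocyte precursor-like, oligodendr. for mature oligodendrocyte-like. Rpl13 reaches 50.1 in precursor-like cells, Rplp1 and Rps29 about 40 in microglia-like cells, and Rpl38 24.3 in endothelial-like cells.

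The large subunit, with 51 genes, drew more UMIs in sum than the small one, with 32 genes, in every class. These are sums over unequal numbers of genes, not levels per gene. The ratio of large-subunit to small-subunit UMIs was 1.62 (1.57 to 1.66) in precursor-like cells, 1.39 (1.36 to 1.43) in astrocyte-like, 1.37 (1.33 to 1.42) in pericyte-like, 1.28 in mature oligodendrocyte-like, 1.26 in microglia-like and endothelial-like and 1.254 (1.23 to 1.28) in neuroblast-like cells. Without Rpl13 the precursor-like ratio was 1.39 (1.34 to 1.43), and it was 1.35 in astrocyte-like and 1.21 in neuroblast-like cells. The precursor-like sum without this gene was 516.9 and that of mature oligodendrocyte-like cells 517.9. The order of those classes turned, but these sums were nearly equal and no counting interval was computed for them.

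The balance of paralog and partner differed between classes. Rpl22 is known to hold down the expression of its paralog Rpl22l1. Rpl22l1 (chr3:28805436-28807424, plus strand) had 102 UMIs per 100 of Rpl22 in astrocyte-like cells (82.7 to 126) and 103 in pericyte-like cells (76.6 to 139), or 92.7 there without the 3 cells with choroid plexus markers. It had 78.8 in precursor-like, 56.2 in microglia-like, 55.1 in neuroblast-like and 51.5 in mature oligodendrocyte-like cells, and 27.3 (22.0 to 33.8) in endothelial-like cells. The endothelial-like interval lay below those of the other 6 classes. In that class Rpl22 was among its higher values, at 8.64 UMIs per 10,000, and Rpl22l1 among its lower ones, at 2.36. Other classes differed: neuroblast-like cells had the highest level of both, 9.10 for Rpl22 and 5.02 for Rpl22l1. Astrocyte-like cells had the lowest Rpl22, 2.04, with Rpl22l1 at 2.09. Whether Rpl22 holds down Rpl22l1 in these cells was not tested. Rpl22l1 shares 28.6% of its 3' end with other genes and Rpl22 11.6%, so their counts are uncertain to that extent.

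Rps27l (chr9:66946086-66949516, plus strand), a p53 target in many cells, had 34.6 UMIs per 100 of Rps27 in precursor-like cells (26.2 to 45.1). It had 32.4 in pericyte-like (24.8 to 41.8), 24.4 in mature oligodendrocyte-like (19.8 to 29.9), 20.6 in astrocyte-like and 18.6 in neuroblast-like cells. Endothelial-like cells had 13.7 and microglia-like cells 7.62 (6.87 to 8.44). Only the microglia-like interval overlapped no other. The level of Rps27l itself was highest in pericyte-like cells, at 3.30 UMIs per 10,000 (2.62 to 4.11). That interval overlapped those of neuroblast-like (2.76, 2.27 to 3.32), endothelial-like and precursor-like cells. Without the 3 cells with choroid plexus markers the pericyte-like level was 2.88 and the ratio to Rps27 28.8. Rps27l was at 1.39 in microglia-like cells, where its partner was at its highest, 18.2. Rps27 shares 29.6% of its 3' end with Rps27rt, so its counts are uncertain. Rpl7l1 had 26.7 UMIs per 100 of Rpl7 (18.7 to 37.4) in precursor-like cells and 15.4 in astrocyte-like cells, whose interval reaches up to 21.1 and overlaps. It had 11.8 in pericyte-like cells and 5.66 to 9.39 in the other 4 classes, all with intervals below the precursor-like one. Rpl7 shares 34.0% of its 3' end with other genes and Rpl7l1 10.8%.

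**Figure D4:**
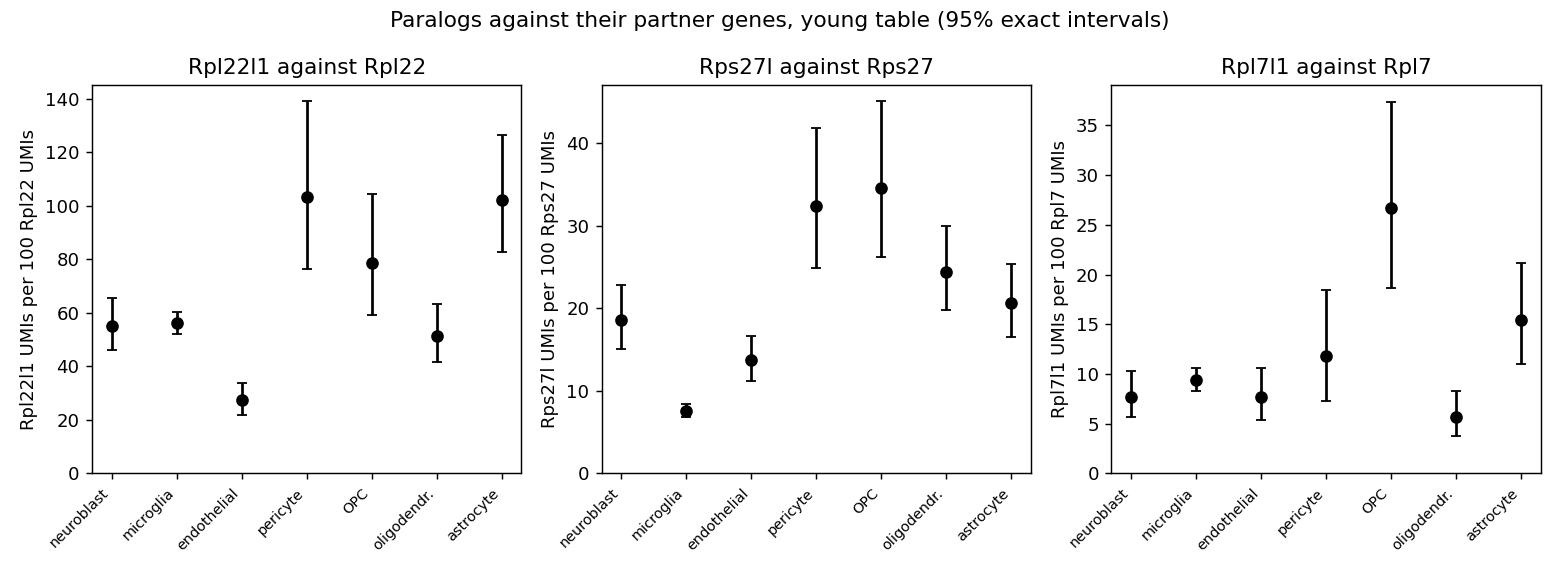
UMIs of Rpl22l1, Rps27l and Rpl7l1 per 100 UMIs of their partner genes (y axes) in the 7 classes, young table, with 95% exact intervals; OPC stands for oligodendrocyte precursor-like. Rpl22l1 is lowest in endothelial-like cells (27.3), Rps27l in microglia-like cells (7.62), and Rpl7l1 is highest in precursor-like cells (26.7).

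Other genes of protein synthesis followed the members only in part. In neuroblast-like cells, where 24.4% of all genes were higher and 38.2% lower, 6 of 9 tested elongation factors were at least 1.5-fold higher and 1 lower; Eef2, which moves the ribosome along the mRNA, was 2.96-fold higher, and Eef1d, an exchange factor for eEF1A, was at 0.54. Of 34 initiation factors 16 were higher and 2 lower, with Eif3e at 2.86-fold and Eif4ebp1 at 0. Of 35 ribosome biogenesis genes 20 were higher and 4 lower, with Nop58, a core protein of box C/D snoRNPs, at 3.38-fold and Nop2 at 0. The median ratios were 2.06, 1.47 and 1.56 against 0.90 over all genes. Of 9 other genes with TOP mRNAs 7 were higher, Hnrnpa1 most at 8.50-fold, and 1 lower, Vim, at 0.61. All 9 of these were lower in astrocyte-like cells, where 36.8% of all genes were. Eef1a1, Eef2, Pabpc1 and Npm1 stand both in this list and in one of the others.

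The mitochondrial ribosome, which translates only the mitochondrial genome, did not share the order. Of its 77 tested protein genes 19 were higher and 4 lower in neuroblast-like cells (median ratio 1.14, against 0.90 over all genes), and the share higher was the same as the 24.4% of all genes to within 1 gene. There were 30 higher and 2 lower in precursor-like cells (1.42 against 1.05, with 27.0% of all genes higher and 27.7% lower), and 0 higher and 56 lower in microglia-like cells (0.54 against 0.64, with 52.3% of all genes lower). Cytosolic members in the last 2 classes went the other way, with medians of 0.65 and 1.39. Among ribosomal proteins whose symbols fall outside the naming pattern, Fau, which is made as a fusion with a ubiquitin-like protein, was 2.59-fold higher in microglia-like cells, and Rack1, a scaffold on the small subunit, 2.46-fold higher in neuroblast-like cells. Rps27rt, the near-copy of Rps27, was 3.54-fold higher in endothelial-like cells, on 128 UMIs in all brain-class cells.

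Within the 1082 barcodes present in both tables, the members summed to 898.7 UMIs per 10,000 in the young table and 912.6 in the old. Of 80 members tested, 68 differed by less than 0.1 on the log2 scale, with a median of -0.004. Of the 80, 2 were at least 1.5-fold higher in the old table (0.424% of all genes) and 0 lower (0.0386% of all genes). These 2, Rpl13a and Rpl27, were that far apart in each of the 7 classes: Rpl13a was at 3.36 in the young and 6.44 in the old table in microglia-like cells, and Rpl27 at 4.26 and 7.07. Rpl41, the next farthest, was at 13.4 and 17.3. Since the cells are the same, these differences are between tables and not between ages, and what in the libraries or counting made them was not tested.

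In the 1343 young cells with a mitochondrial share below 1%, the members took 36.9% of UMIs, against 9.04% in brain-class cells. Their median mitochondrial share was 0.083% and their median depth 7180 UMIs. Near the threshold, 29 cells with mitochondrial shares from 0.5% to 1% had 10.9% and 38 cells from 1% to 1.5% had 6.86%. Against brain-class cells 58 of 81 members were at least 1.5-fold higher (14.7% of all genes) and 15 lower (71.3% of all genes), with a median ratio of 3.76 against 0.20 over all genes. Rpl39l, counted among the 58, passed the minimum through 64 of its 78 UMIs, in an unnamed cluster of 3 brain-class cells. The mixture differed far more than between classes: without Rpl39l, the SD of the log2 share ratio over 80 members was 1.92, against 0.23 to 0.38 in the 7 classes, and 12 of 81 shares had a ratio between 0.8 and its reciprocal.

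Single members stood on opposite sides in these cells. Rps19 was 10.9-fold higher, Rps4x, the X-linked small-subunit gene, 9.70-fold and Rpl5, which binds 5S rRNA, 9.23-fold. Rpl41, the smallest member, was at 0.546 UMIs per 10,000 in low-mitochondrial and 13.6 in brain-class cells, a ratio of 0.040, Rpl29 was at a ratio of 0.061 and Rps2 at 0.10. Rpl39l (chr16:10170226-10174911, plus strand) had 41.2 UMIs per 10,000 there and its partner Rpl39 only 4.65, or 886 UMIs of the paralog per 100 of the partner, while in microglia-like cells they stood at 0.031 and 17.8. Rpl10l had 3293 UMIs there and 0 in the 7 classes. Only 2.26% of the 3' end of Rpl39l is shared with another gene, and 15.1% of that of Rpl10l. Rps2 shares 59.8% of its 3' end with other genes, Rpl29 57.0% and Rpl41 25.2%. For Rps4x, Rpl5 and Rps19 it is 35.4%, 33.0% and 17.8%. Their counts are uncertain to that extent, and the part of shared sequence in these ratios was not tested. The 9 pseudogene columns of these families, which are no members, were at 0.791 UMIs per 10,000 in brain-class and 135.3 in low-mitochondrial cells. The 269 low-mitochondrial cells of the old table gave 36.5% for the members, 30.6 for Rpl39l and 4.74 for Rpl39. All 269 of their barcodes were also low-mitochondrial in the young table, so these values are not a replicate. What these cells are was not tested here.

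**Figure D5:**
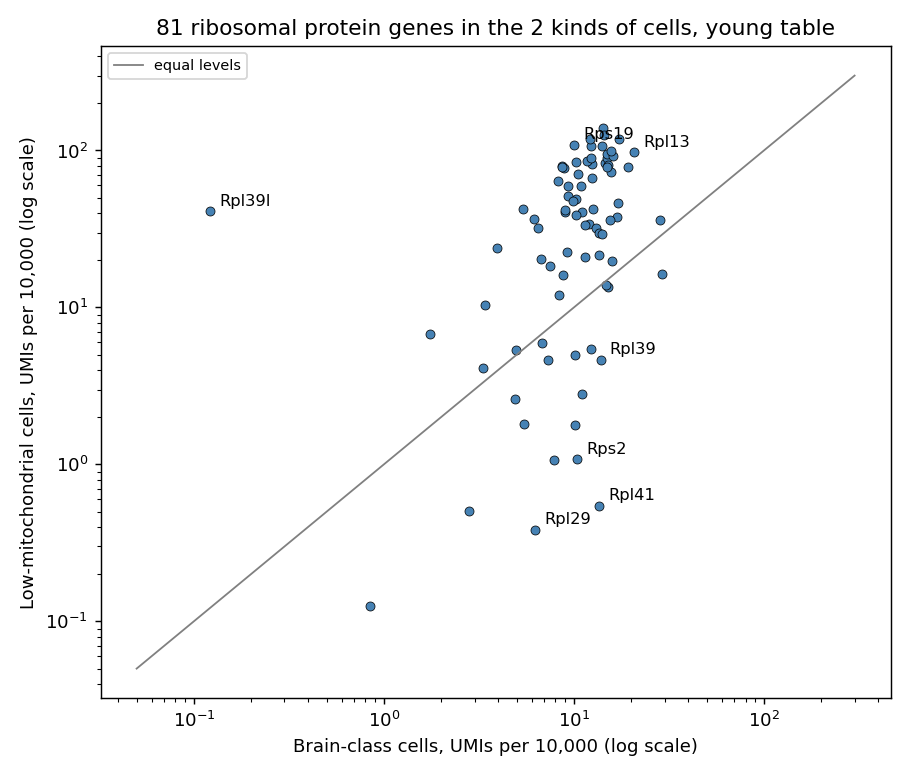
Level of 81 members in low-mitochondrial cells (y axis) against brain-class cells (x axis), both in UMIs per 10,000 on log scales, young table; each point is a gene and the line marks equal levels. Most points lie above the line, Rpl39l far above it (41.2 against 0.122), and Rpl41, Rpl29, Rps2 and Rpl39 below it. Of the 78 UMIs of Rpl39l in brain-class cells, 64 came from an unnamed cluster of 3 cells.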

How the data were processed

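The deposited table holds both libraries with cells in rows. Its values, as deposited, are natural logs, ln(1 + UMIs per 10,000 UMIs of that cell), a unit read from the values. Per the submitters' processing notes, Cell Ranger 5.0.0 and mm10 were used; annotation and cell filtering: not given in the sources used here. Dividing each cell's linear values by that of 1 UMI gave whole numbers within 0.01, and these UMIs were summed over the cells of a class.

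Both tables were clustered together without the 83 members and mitochondrial genes (scanpy 1.11.5, 2000 variable genes, 30 components, 15 neighbours, Leiden with igraph 0.11.9, resolution 1). A marker counted when detected in 25% of a cluster's cells at a level at least 4 times the median of the other clusters and 25% of the highest; a class name needed 3 markers, and a cluster whose 10 leading genes favoured another class, or that was shallow (median UMIs times 3 below its library's median) with none of its markers among them, stayed unnamed. This naming rule was set after the clusters were seen. Scrublet called 37 young (1.50%) and 23 old (1.61%) cells doublets, which stayed in.

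Ratios compare a class with the mean of the other 6, for genes with at least 50 UMIs in brain-class cells. Intervals are 95% exact Poisson (levels) or exact binomial (ratios of counts). The calculation of ratios was tested on simulated counts. Shared 3' ends were counted as 31-base words of the last 500 bases of GENCODE M21 transcripts (GRCm38, which mm10 names); 13 members share at least 50% with other genes. Named members are the P stalk, the paralogs with partners, the 3 widest and narrowest spans, the 2 highest and lowest shares per class, the 3 with most UMIs, the 3 farthest apart between tables and the extremes of the other lists. The result of 1 member under this rule is not reported here. Members and lists were chosen with earlier results of these data known. Alternatives were the old table, doublets removed, another denominator, weighting, mitochondrial threshold, clustering, fold, minimum count and depth.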

Additional observations from a re-analysis of the deposited data

How the results depend on the processing

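The neuroblast-like class was highest and the astrocyte-like class lowest in the summed level under all alternatives run. The ratio between them, 3.97, was 3.79 in the old table, 3.88 with mitochondrial UMIs left out of the total, 4.07 with each cell weighted equally, 4.12 with the members kept in clustering and 3.67 in cells with at least 3000 UMIs. It was 3.55 without the shallow astrocyte-like cluster, an alternative chosen after seeing the data, as were the shared barcodes and the removal of Rpl13 and of cells with choroid plexus markers. Pericyte-like and precursor-like cells changed places with doublets removed, with members kept in clustering and without cells with choroid plexus markers. Precursor-like and mature oligodendrocyte-like cells did so without Rpl13, with nearly equal sums. The 73 members higher in neuroblast-like cells became 43 at a fold of 2. The 39 shares apart became 148 at the smaller fold (the reciprocal of 0.8) and 10 at a fold of 2. The large-to-small ratio in neuroblast-like cells, 1.254, was 1.29 in the old table, 1.22 without members that share a 3' end and 1.21 without Rpl13. Of the other values that were recomputed, 333 stayed within their counting interval or within 1.5-fold of the count and 95 did not; none has a test that could change sides. The cause of these changes was not tested, except that another fold calls more or fewer genes by construction. No paired analysis was possible because each age has 1 library, which leaves no replicates to pair; the same barcodes were compared between the tables instead. Depth limits the paralogs Rpl39l, Rpl10l and Rpl3l, which had at most 9 UMIs in any of the 7 classes.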
